A study of Mus musculus with 6 samples.

Results

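Venous endothelial cells line the small veins that drain the synovium, the soft tissue that lines the joint. They were chosen by their measured counts, as the barcodes with mitochondrial UMIs of at most 10%, at least 2 UMIs of the endothelial genes Pecam1, Cdh5 and Cldn5 together, no UMI of the leukocyte gene Ptprc, at most 5 UMIs of the fibroblast genes Dcn and Col1a2 together, and at least 2 UMIs of the venous genes Selp, Ackr1 and Vwf together. A UMI is a molecular tag that marks 1 captured transcript. The rule found 282 venous cells among 1001 endothelial cells and 18491 deposited barcodes, and the other 719 endothelial cells served for comparison.

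The cells came from single-cell RNA sequencing of mouse knee synovium, with tissue of 10 mice pooled for each of 6 libraries and 1 library per group. The arthritic groups were Notch3-/- knockout mice (KBN_KO, 35 venous cells), wild-type mice (KBN_WT, 55), mice given an antibody against Notch3 (KBN_N3AB, 33) and mice given an isotype control antibody (KBN_ISO, 86). The healthy groups were Notch3-/- knockout mice (Ctrl_KO, 47) and wild-type mice (Ctrl_WT, 26). Arthritis followed transfer of serum from K/BxN mice, an autoimmune strain whose antibodies inflame the joints of recipients, and all arthritic groups share it. Strain, age, the deleted part of Notch3, the genotype of the antibody-treated mice and the times of treatment are not given in the sources used here. Pooling leaves no measure of the spread between mice, and single-pair ratios stand without replicates. Each p-value below rests on how far libraries of different groups depart from a fitted model, not on repeats of a group.

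Venules are where leukocytes leave the blood in inflamed tissue. Their endothelium stores P-selectin, the product of Selp, beside von Willebrand factor in Weibel-Palade bodies, granules that fuse with the surface on activation, and it carries Ackr1, a receptor that binds chemokines without signalling and displays them. Notch3 is a receptor best known from the mural cells around vessels, the smooth muscle cells and pericytes, where it is switched on by ligands such as Jag1 on the endothelium. The study's title places its question in how Notch signalling from the vessels sets the identity of synovial fibroblasts; the venous cells belong to those vessels.

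Levels below are CPM, the UMIs of a gene per 1000000 UMIs summed over the venous cells of a library. The venous cells of a library held between 113319 and 490551 UMIs in all. Their median UMIs per cell were 3153 in KBN_KO, 6682 in KBN_WT, 3669 in KBN_N3AB, 4641 in KBN_ISO, 3196 in Ctrl_KO and 5386 in Ctrl_WT, so each library with Notch3 targeted was shallower than its partner. No 2 libraries shared a venous barcode, and 5 to 29 barcodes of all cells were shared between any pair of libraries. Among the markers of other cell types, at least 3 UMIs of the lymphatic list were seen in 3 of 282 venous cells, of the megakaryocyte list in 1, of the neutrophil list in 1 and of the lymphocyte and erythroid lists in 0. Such UMIs of the mural list were seen in 54 (19.1%), of the fibroblast list in 107 (37.9%) and of the macrophage list in 29 (10.3%), and these shares differed between libraries. Tagln held most of the mural-list UMIs, and Cd14 most of the macrophage-list UMIs. Whether the UMIs of these lists were stray RNA was not tested. The share with fibroblast UMIs was 73.3% in KBN_ISO and 55.3% in Ctrl_KO, against 2.86 to 25.5% in the others.

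The genes of the rule are given as a description. Selp was seen in 236 of the 282 cells, Vwf in 227 and Ackr1 in 186, and 128 cells (45.4%) held all 3. Cells with Selp and neither of the others numbered 22, cells with Vwf alone 18 and cells with Ackr1 alone 3. The share with all 3 was lowest in KBN_KO at 25.7% and highest in KBN_WT at 61.8%, which are also the shallowest and the deepest of the 6 libraries by median UMIs per venous cell. Just inside the threshold lay 29 cells with exactly 2 UMIs, and just outside it 67 endothelial cells with exactly 1; 652 endothelial cells had none.

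Lrg1, a secreted glycoprotein of inflamed and growing vessels, was given as a marker but not used by the rule. It stood at 1780 CPM (95% Poisson interval 1710 to 1860) in venous cells with 3 or more UMIs of the rule genes, 1270 (1100 to 1470) in those with exactly 2, 945 (828 to 1080) in endothelial cells with 1, and 288 (264 to 313) in those with none. The level thus stepped down across the threshold without a gap. Members also differed among themselves by which rule gene they held. In the 18 cells with Vwf alone, the summed arterial list was at 6680 CPM (6120 to 7270) and Lrg1 at 682 (512 to 890), whereas in the 186 cells with Ackr1 the arterial list was at 2030 (1940 to 2130) and Lrg1 at 1930 (1840 to 2020). The 22 cells with Selp alone had the arterial list at 993 CPM (845 to 1160). Cells admitted through Vwf alone therefore carried more of the summed arterial list and less Lrg1 than cells with Ackr1, and 9 of the 18 came from Ctrl_KO. The arterial gene Gja4 was at 50.5 CPM (13.8 to 129) in them and 146 (129 to 164) in endothelial cells with no rule UMIs. Of the 22 cells with Selp alone, 14 came from KBN_ISO and 5 from KBN_WT, the arthritic libraries without targeting.

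Venous cells carried a recognisable set of transcripts beyond the rule. Of 6450 genes with at least 60 UMIs over all endothelial cells, 59 (0.915%) were at least 2-fold higher in venous than in other endothelial cells in each of the 6 libraries, and 73 (1.13%) were at least 2-fold lower. These are descriptions with no test, since the rule that drew the line read the same cells. Venous cells were also deeper than other endothelial cells in every library, with medians of 3153 to 6682 against 1609 to 4600 UMIs per cell.

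Sele, which encodes E-selectin, the adhesion molecule that catches rolling leukocytes, stood furthest apart, with a median log2 ratio of 6.59 over the 6 libraries. In venous cells it was at 203 CPM in KBN_KO, 140 in KBN_WT, 171 in KBN_N3AB, 200 in KBN_ISO, 158 in Ctrl_KO and 159 in Ctrl_WT. Healthy and arthritic libraries overlapped, and other endothelial cells had 0 to 21.3 CPM. F5, the coagulation factor V gene, followed with a median log2 ratio of 4.83. Csf3, which encodes the neutrophil growth factor G-CSF, had a median of 3.74, and Klk8, a secreted serine protease, 4.31. Ectoenzymes and surface regulators were in the set as well. The medians were 3.30 for Nt5e (CD73, which makes adenosine), 3.18 for Bst1 (CD157), 2.77 for Cd55 (a brake on complement) and 2.99 for the leptin receptor Lepr. The prostaglandin genes Ptgs1, for cyclooxygenase 1, and Slco2a1, for a prostaglandin transporter, had medians of 2.63 and 2.58.

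Of the 15 measured genes of the venous list, which leaves out the rule genes, 6 were at least 2-fold higher in every library: Lrg1, Il6st, Il1r1, Slco2a1, Ptgs1 and Lbp. The cytokine receptor subunits Il6st and Il1r1 bind signals of the interleukin-6 and interleukin-1 families. Nr2f2, the transcription factor that holds venous identity, was at 181 to 288 CPM in venous and 32 to 99.7 in other endothelial cells, and did not pass 2-fold in every library. Of 17 measured capillary genes, 10 were lower in every library, as were 6 of 18 arterial genes. Gpihbp1, which anchors lipoprotein lipase to the capillary wall, had a median log2 ratio of -4.49, its partner Lpl -4.11, and the arterial gap junction gene Gja4 -4.60. Timp4, Rbp7 and Btnl9 were lower still, at -5.29, -5.16 and -4.78.

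**Figure D1:**
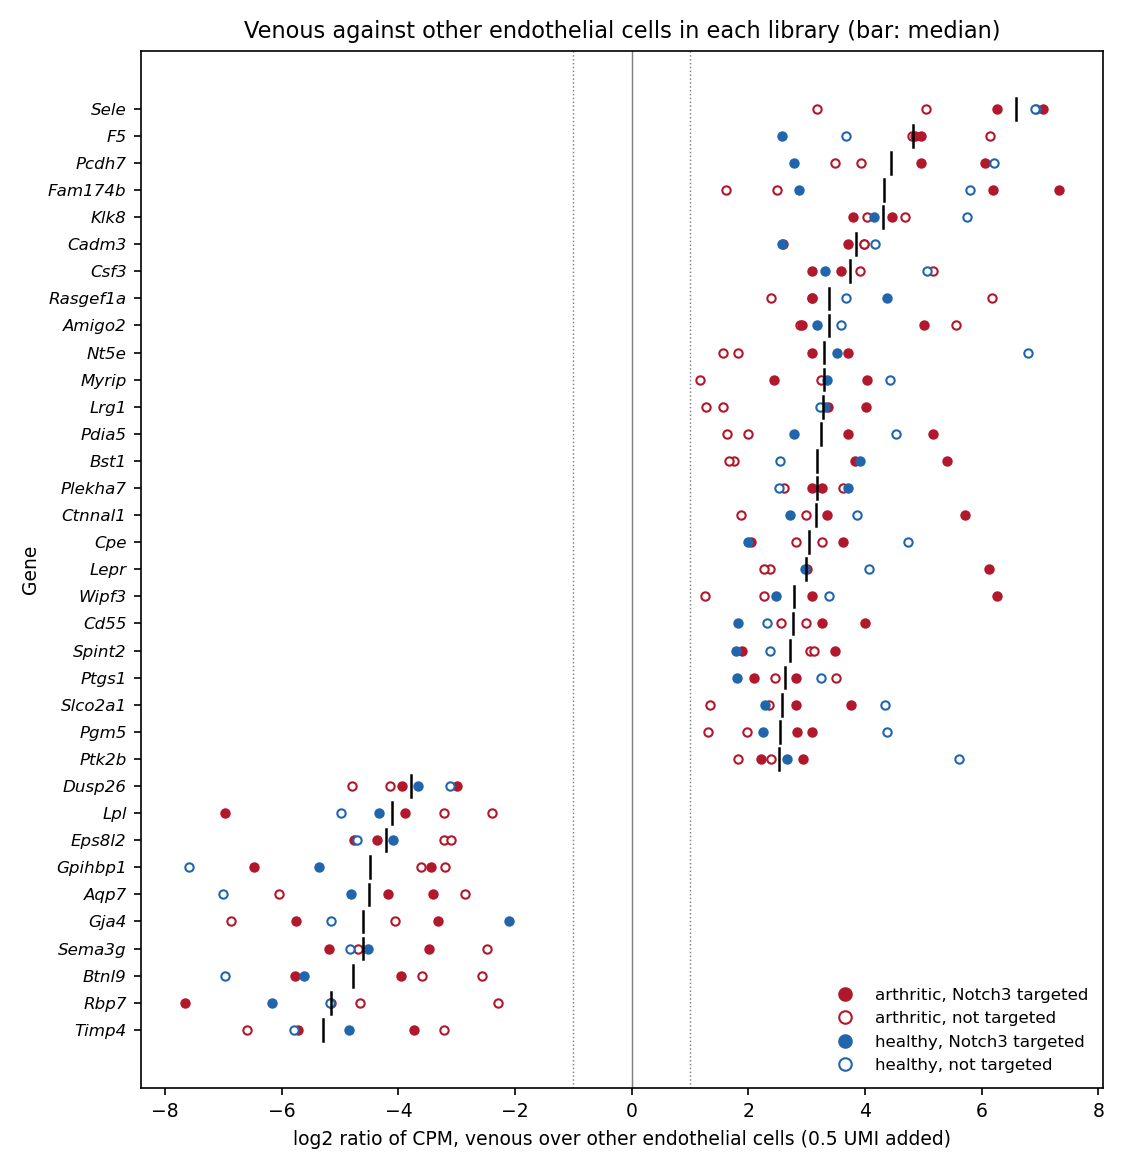
Log2 ratio of CPM in venous over other endothelial cells for the 25 genes with the highest and the 10 with the lowest median among those at least 2-fold apart in all 6 libraries; each point is 1 library and the black bar is the median. All points lie beyond the dotted lines at 2-fold, as the choice of genes requires, from Sele at the top (median 6.59) to Timp4 at the bottom (median -5.29).

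Leukocyte exit genes were led by a few members. Besides Sele, 2 more of 16 measured leukocyte adhesion genes, Icam1 and Bst1, were at least 2-fold higher in venous cells in every library. Icam1, a ligand of leukocyte integrins, was at 1540 CPM in KBN_KO, 572 in KBN_WT, 692 in KBN_N3AB, 406 in KBN_ISO, 960 in Ctrl_KO and 629 in Ctrl_WT in venous cells, and at 75.4 to 468 CPM in other endothelial cells. Madcam1, an address molecule of gut vessels, had 0 UMIs in venous cells of all 6 libraries.

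The share of venous cells among endothelial cells was lower with Notch3 targeted in arthritis, by an amount that depended on depth. In the genotype pair it was 18.0% in KBN_KO (exact 95% interval 12.9 to 24.2) and 44.4% in KBN_WT (35.4 to 53.5). In the antibody pair it was 29.2% in KBN_N3AB (21 to 38.5) and 40.6% in KBN_ISO (33.9 to 47.5), and in the healthy pair 22.4% in Ctrl_KO (16.9 to 28.6) and 17.6% in Ctrl_WT (11.8 to 24.7). Intervals were apart in the genotype pair and overlapped in the other 2 pairs.

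A cell with more UMIs reaches 2 rule UMIs more easily, so endothelial cells were also thinned to 1000 UMIs. Cells with fewer were left out, 16 in KBN_KO and 0 in KBN_WT, 3 in KBN_N3AB and 4 in KBN_ISO, and 16 in Ctrl_KO and 12 in Ctrl_WT, and none of them was a venous cell. The venous share was then 12.9% in KBN_KO (8.37 to 18.8) and 25.8% in KBN_WT (18.4 to 34.4), 22.7% in KBN_N3AB (15.3 to 31.7) and 23.1% in KBN_ISO (17.5 to 29.4), and 13.4% in Ctrl_KO (8.95 to 19.0) and 9.56% in Ctrl_WT (5.19 to 15.8). After thinning the antibody pair was nearly level and the intervals of the genotype pair met. Only the count of the venous genes used thinned UMIs. The endothelial gate still used all UMIs, so depth could still bear on which cells were counted. As a share of all cells with at most 10% mitochondrial UMIs, venous cells were 1.32% in KBN_KO and 2.30% in KBN_WT, 1.60% in KBN_N3AB and 2.83% in KBN_ISO, and 0.940% in Ctrl_KO and 0.891% in Ctrl_WT. With 1 library per group these intervals cover counting error only, and no test between groups was made.

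**Figure D2:**
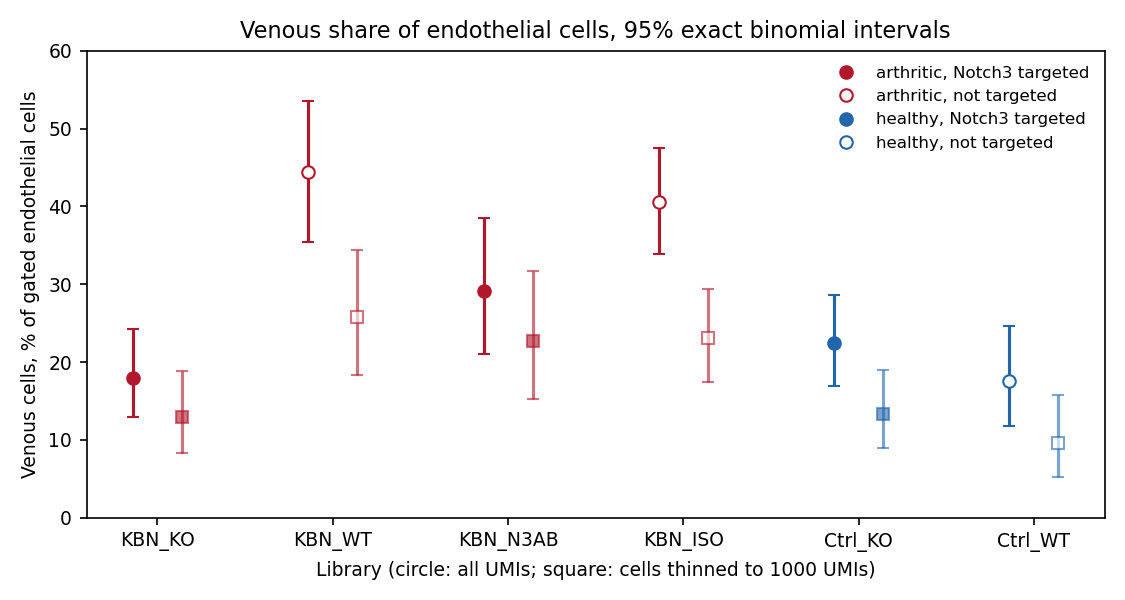
Venous cells as a percentage of gated endothelial cells in each library, with 95% exact binomial intervals; circles use all UMIs and squares use cells thinned to 1000 UMIs. KBN_WT and KBN_ISO are highest with all UMIs (44.4% and 40.6%), and after thinning KBN_N3AB (22.7%) and KBN_ISO (23.1%) are level.

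Whether targeting Notch3 changed the transcripts of venous cells was asked over the pairs. Notch3 itself was nearly absent from them, with 0 UMIs in KBN_KO, KBN_WT, KBN_N3AB and Ctrl_KO and 2 UMIs each in KBN_ISO and Ctrl_WT, so the venous cells give no check of the knockout. Over all 3 pairs, with pair as a term, edgeR's quasi-likelihood test called 0 of 2887 genes at an adjusted p under 0.05 (0% of genes tested), with 280 at an unadjusted p under 0.05; DESeq2 called 19. The 6 smallest p-values, all with an adjusted p of 0.164, included Mt1, Btg2 and Sox4. The effect was then fitted apart for the arthritic and the healthy pairs. In the 2 arthritic pairs 349 of 3573 genes were called (9.77%), 220 higher (6.16%) and 129 lower (3.61%) with Notch3 targeted; 3 of them (Vwf, Cldn5 and Col1a2) are genes of the rule, and nothing is read from those calls. This fit has 1 residual degree of freedom and took its spread wholly from all genes together, and DESeq2 called 58, all of them among the 349.

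The 2 arthritic pairs share no library and moved alike. Among the 3315 genes that reached 20 UMIs in both, 238 were at least 2-fold apart in both, and 230 of these (96.6%) in the same direction. Over all genes measured in a pair, 8.15% were at least 2-fold higher and 15.2% lower in the genotype pair, and 5.93% higher and 13.4% lower in the antibody pair. Counts summed over a library cannot tell fewer cells of a kind from less RNA per cell. Depth moved with targeting in all 3 pairs; with the summed counts of every library thinned to the smallest total, 255 genes were called, 170 higher and 85 lower.

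Transcripts of the vascular basement membrane, the sheet of collagen IV, laminin and perlecan on which endothelium rests, were lower with Notch3 targeted in arthritis. Of 14 tested members of the list, 7 fell and 1 (the laminin chain Lamb2) rose, with a median log2 fold change of -0.88 against 0.01 over all genes tested; 3.61% of all genes were called lower. Col4a1, an alpha chain of collagen IV, was at 8.82 CPM in KBN_KO and 709 in KBN_WT, at 132 in KBN_N3AB and 785 in KBN_ISO, and at 109 in Ctrl_KO and 111 in Ctrl_WT. Both arthritic libraries without targeting stood above the other 4, and the healthy pair was level. The log2 fold change in the arthritic pairs was -3.27 (SE 0.37, adjusted p = 4.86e-16), and DESeq2 did not call it (adjusted p = 0.147).

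Col4a2, the other chain of the same collagen, was at 52.9 CPM in KBN_KO and 690 in KBN_WT, 187 in KBN_N3AB and 970 in KBN_ISO, and 91.1 in Ctrl_KO and 104 in Ctrl_WT. Its log2 fold change was -2.69 (SE 0.34, adjusted p = 3.12e-13; DESeq2 0.000355). The 2 genes stood in the same order across libraries, with both arthritic libraries lacking targeting highest. They lie head to head on chromosome 8 (mm10), Col4a1 at 11198423 to 11312826 on the minus strand and Col4a2 at 11312805 to 11449287 on the plus strand, and their annotated starts are 21 bases apart in RefSeq. Because they fell together and share this start region, the RefSeq window of Col4a1 (GRCm38.p6, chr8:11312777-11313076, minus strand, 250 bases before and 50 after the start) is shown in lower case. Neither it nor the window of Col4a2 holds any of the motifs searched on both strands: TGGGAA, the core bound by RBPJ, the DNA-binding partner of Notch; AGATAA of GATA factors; AGGAAG of ETS factors; and the NF-kB consensus. These occur in 25.6%, 11.2%, 35.4% and 1.63% of 32851 mouse windows of the same length.
Col4a1: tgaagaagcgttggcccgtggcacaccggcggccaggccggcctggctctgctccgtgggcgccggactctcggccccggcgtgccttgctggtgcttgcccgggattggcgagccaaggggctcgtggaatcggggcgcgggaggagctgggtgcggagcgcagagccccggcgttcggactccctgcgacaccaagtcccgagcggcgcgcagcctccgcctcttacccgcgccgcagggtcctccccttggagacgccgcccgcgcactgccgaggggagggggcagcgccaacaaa

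Col15a1 and Col18a1, for the collagens XV and XVIII that tie basement membrane to the tissue around it, followed. Col15a1 was at 106 CPM in KBN_KO and 846 in KBN_WT, 202 in KBN_N3AB and 752 in KBN_ISO, and 103 in Ctrl_KO and 76.0 in Ctrl_WT (log2 fold change -2.23, SE 0.32, adjusted p = 5.11e-10). Col18a1 was at 8.82 CPM in KBN_KO and 605 in KBN_WT, 85.6 in KBN_N3AB and 487 in KBN_ISO, and 42.5 in Ctrl_KO and 131 in Ctrl_WT (-3.33, SE 0.40, adjusted p = 4.80e-14). In each of these genes the 2 arthritic libraries without targeting lay above the other 4. Sparc, a collagen-binding matrix protein, fell by 1.68 on the log2 scale, Hspg2, which encodes perlecan, by 1.09, and Lamb1 by 1.59.

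Stray fibroblast RNA was uneven in the antibody pair, where the summed fibroblast list was at 202 CPM in KBN_N3AB and 703 in KBN_ISO; it was 274 in KBN_KO and 285 in KBN_WT. In all non-endothelial cells together, Col4a1 was at 171 CPM in KBN_KO, 157 in KBN_WT, 88.2 in KBN_N3AB and 97.9 in KBN_ISO. That sum includes leukocytes and does not give the level in fibroblasts or mural cells. Col3a1, a fibroblast collagen, was called lower too, at 26.5 CPM in KBN_KO and 73.9 in KBN_WT, and 38.9 in KBN_N3AB and 241 in KBN_ISO. The part of fibroblast RNA in these results was not tested.

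**Figure D3:**
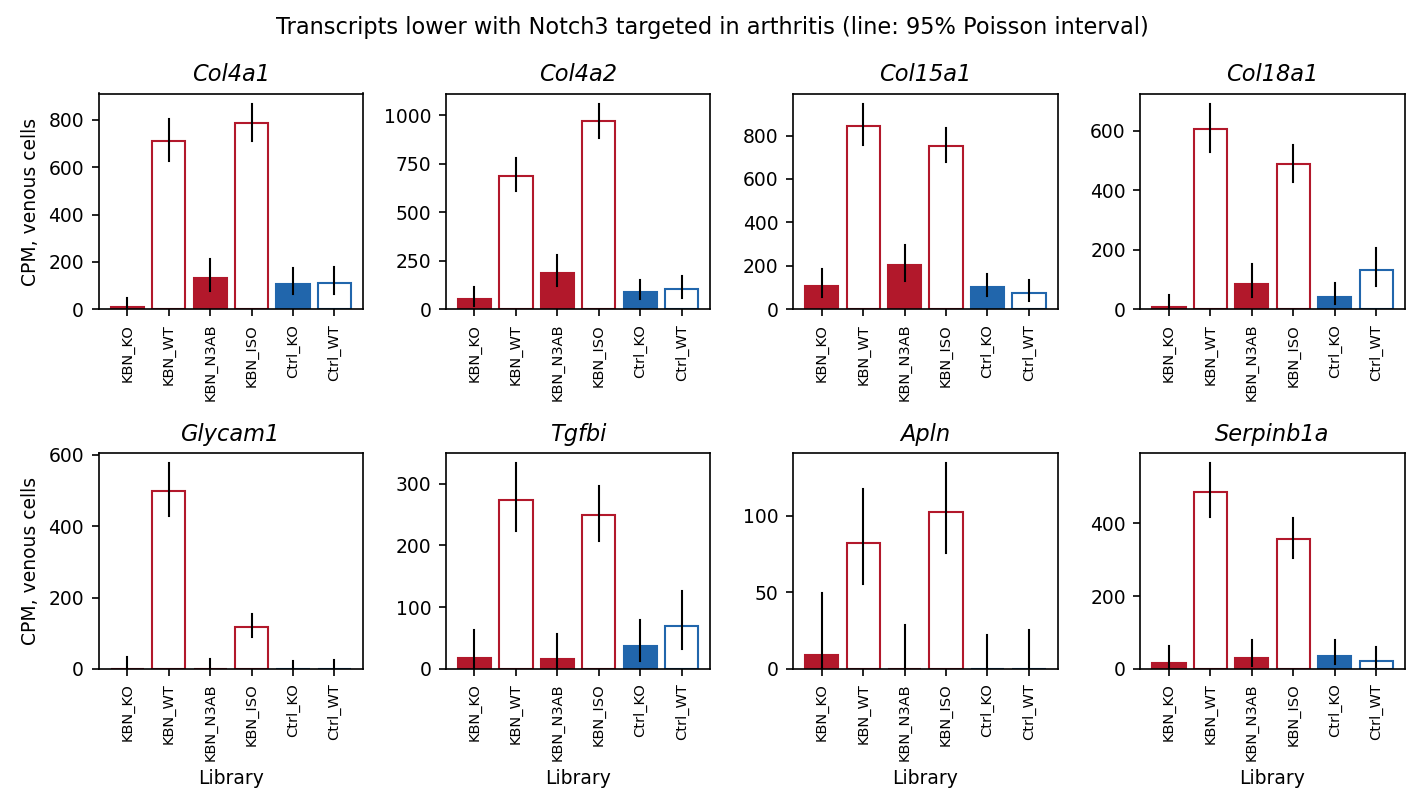
CPM in venous cells of 8 genes called lower with Notch3 targeted in the 2 arthritic pairs; bars are libraries, filled where Notch3 was targeted, red for arthritic and blue for healthy, and black lines are 95% Poisson intervals of the counts. KBN_WT and KBN_ISO are the tallest bars in every panel, for example 709 and 785 CPM of Col4a1 against 8.82 in KBN_KO and 132 in KBN_N3AB.

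Genes of leukocyte capture moved both ways. Glycam1, a mucin-like ligand of L-selectin made by high endothelial venules, the specialised venules of lymph nodes, had 0 UMIs in KBN_KO and 182 in KBN_WT, and 0 in KBN_N3AB and 58 in KBN_ISO. In the healthy pair it had 0 UMIs in both. The 240 UMIs lay in 22 cells, 10 of them in KBN_WT and 12 in KBN_ISO, and other endothelial cells had 0 to 2.83 CPM. Against a floor of 3 UMIs per library, the gene was 18.8-fold lower in KBN_KO than in KBN_WT and 5.07-fold lower in KBN_N3AB than in KBN_ISO. This floor counts UMIs as independent, whereas they lay in few cells, so these folds are not lower bounds. edgeR called it (adjusted p = 8.31e-16) and DESeq2 did not (adjusted p = 1.0).

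Glycam1 lies on chromosome 15 (mm10, 103562759 to 103565081, minus strand). Its start region is shown because it was the member with the clearest presence and absence, beside that of Selp, a gene that defines the cells; Selp lies on chromosome 1 (164115264 to 164150026, plus strand). Both are RefSeq windows (GRCm38.p6, chr15:103565032-103565331, minus strand, and chr1:164115014-164115313, plus strand), in lower case with matches to the motifs named above in capitals. The Glycam1 window holds 3 matches to the RBPJ core, printed as TTCCCA on the shown strand, and 1 to the ETS core, printed as CTTCCT. The Selp window holds 2 ETS matches and none of the others. A match describes letters and is not evidence of binding.
Glycam1: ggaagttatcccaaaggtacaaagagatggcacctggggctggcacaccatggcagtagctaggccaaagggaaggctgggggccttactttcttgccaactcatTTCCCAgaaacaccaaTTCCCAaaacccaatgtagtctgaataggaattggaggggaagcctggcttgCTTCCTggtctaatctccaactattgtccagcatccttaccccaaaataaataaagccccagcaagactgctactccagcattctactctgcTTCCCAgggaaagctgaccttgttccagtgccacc
Selp: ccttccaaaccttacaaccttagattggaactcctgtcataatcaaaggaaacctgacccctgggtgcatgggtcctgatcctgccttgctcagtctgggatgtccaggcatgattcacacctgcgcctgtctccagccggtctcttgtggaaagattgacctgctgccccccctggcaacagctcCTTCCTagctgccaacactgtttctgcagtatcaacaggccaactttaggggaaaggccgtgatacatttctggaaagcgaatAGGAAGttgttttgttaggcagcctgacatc

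Vcam1 and Icam1, the integrin ligands of firm adhesion, rose in the arthritic pairs, and Mcam, an adhesion molecule between endothelial cells, fell. Vcam1 was at 238 CPM in KBN_KO and 84.9 in KBN_WT, 109 in KBN_N3AB and 57.1 in KBN_ISO, and 322 in Ctrl_KO and 62.2 in Ctrl_WT. It was higher with targeting in all 3 pairs, with a log2 fold change of 1.37 (SE 0.37, adjusted p = 0.00466) in the arthritic ones. Icam1, whose levels are given above, was also higher in all 3 pairs (1.24, SE 0.27, adjusted p = 0.000104). Neither passed with DESeq2 (adjusted p = 0.933 and 0.0888). Sele had a log2 fold change of 0.26 (SE 0.33, adjusted p = 0.707). In all, leaving out rule genes, 2 of 14 tested adhesion genes rose and 2 fell (median 0.06), against 6.16% of all genes higher and 3.61% lower. The rule genes were in the fit, but since the rule chose cells on them their values are a description only. Selp was at 962 CPM in KBN_KO and 1440 in KBN_WT, 1100 in KBN_N3AB and 1200 in KBN_ISO, and 778 in Ctrl_KO and 1040 in Ctrl_WT. Vwf was at 1080 CPM in KBN_KO and 457 in KBN_WT, 817 in KBN_N3AB and 330 in KBN_ISO, and 832 in Ctrl_KO and 712 in Ctrl_WT. Ackr1 was at 565 CPM in KBN_KO and 734 in KBN_WT, 630 in KBN_N3AB and 544 in KBN_ISO, and 456 in Ctrl_KO and 346 in Ctrl_WT. Vwf was higher with targeting in each pair, Selp lower in each, and Ackr1 mixed.

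With the rule gene Vwf left out, 6 of 14 tested haemostasis and granule genes fell and 0 rose, against 3.61% of all genes lower and 6.16% higher. The list's median log2 fold change was -0.19, and F2r, Angpt2, Tfpi, Cd63 and Anxa2 were among those that fell. Tfpi, the tissue factor pathway inhibitor, was at 35.3 CPM in KBN_KO and 98.6 in KBN_WT, 15.6 in KBN_N3AB and 106 in KBN_ISO, and 48.6 in Ctrl_KO and 69.1 in Ctrl_WT (log2 fold change -1.90, SE 0.53, adjusted p = 0.0064; DESeq2 1.0). It was lower with targeting in all 3 pairs. The thrombin receptor gene F2r fell by 2.93 and Angpt2, an antagonist of the Tek receptor stored in Weibel-Palade bodies, by 2.12 on the log2 scale. Cd63, a membrane protein of the same granules, fell by 1.21 and the annexin Anxa2 by 1.03.

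Of the growth-factor list, 3 of 11 tested genes fell and 1 rose (median log2 fold change -0.14), against 3.61% of all genes lower and 6.16% higher. Apln, the apelin peptide made by sprouting tip cells, was at 8.82 CPM in KBN_KO (1 UMI) and 82.2 in KBN_WT, 0 in KBN_N3AB and 102 in KBN_ISO, and 0 in both healthy libraries. Its receptor Aplnr was at 70.6 CPM in KBN_KO and 214 in KBN_WT, 194 in KBN_N3AB and 418 in KBN_ISO, and 60.7 in Ctrl_KO and 48.4 in Ctrl_WT (log2 fold change -1.14, SE 0.34, adjusted p = 0.0121). Ligand and receptor were each highest in the 2 arthritic libraries without targeting. Ptprb, a phosphatase that restrains Tek and the VEGF receptor, rose by 1.35 (SE 0.27, adjusted p = 2.24e-05). Serpinb1a, an inhibitor of neutrophil proteases, was at 17.6 CPM in KBN_KO and 487 in KBN_WT, 31.1 in KBN_N3AB and 357 in KBN_ISO, and 36.4 in Ctrl_KO and 20.7 in Ctrl_WT (-3.92, SE 0.47, adjusted p = 1.68e-14). Tgfbi, a matrix protein induced by TGF-beta, fell by 3.81 and the protease inhibitor gene Serpine2 by 3.36 on the log2 scale. Moxd1, Akr1b8, Cmah and Slc12a2 were among the 12 with the largest falls, at 0 to 15.6 CPM with targeting and 44.8 to 114 CPM without it in arthritis. So was the pericyte gene Rgs5, which rests on 63 UMIs in KBN_ISO and had 0 in both KBN_KO and KBN_WT.

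Transcripts that rose with targeting included secreted and metabolic genes. Cytl1, a small secreted protein, was at 644 CPM in KBN_KO and 13.7 in KBN_WT, 1490 in KBN_N3AB and 30.6 in KBN_ISO, and 601 in Ctrl_KO and 1060 in Ctrl_WT. Only the 2 arthritic libraries without targeting were low. The log2 fold change in the arthritic pairs was 5.69 (SE 0.37, adjusted p = 2.28e-48; DESeq2 3.06e-23), and the 537 UMIs of the 6 libraries lay in 56 cells. Fmo2, a flavin monooxygenase, was at 503 CPM in KBN_KO and 19.2 in KBN_WT, 319 in KBN_N3AB and 16.3 in KBN_ISO, and 267 in Ctrl_KO and 560 in Ctrl_WT (4.59, SE 0.40, adjusted p = 1.54e-27). Cyp4b1, a cytochrome P450, was at 194 CPM in KBN_KO and 8.22 in KBN_WT, 163 in KBN_N3AB and 6.12 in KBN_ISO, and 85.0 in Ctrl_KO and 249 in Ctrl_WT (4.68, SE 0.50, adjusted p = 1.47e-17). For Fmo2 and Cyp4b1 too, both healthy libraries lay with the targeted arthritic ones.

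Apoe, the lipid carrier apolipoprotein E, was at 4230 CPM in KBN_KO and 367 in KBN_WT, 2080 in KBN_N3AB and 342 in KBN_ISO, and 2710 in Ctrl_KO and 2860 in Ctrl_WT (3.19, SE 0.26, adjusted p = 2.85e-30). Mt1, a metal-binding metallothionein, was at 2970 CPM in KBN_KO and 178 in KBN_WT, 840 in KBN_N3AB and 133 in KBN_ISO, and 2360 in Ctrl_KO and 739 in Ctrl_WT. It was higher with targeting in all 3 pairs (arthritic pairs 3.52, SE 0.29, adjusted p = 1.96e-30). Cd24a, a glycosylated surface protein, rose by 2.81 (SE 0.31), Mgp, an inhibitor of calcification, by 2.21 (SE 0.26), and Gas6, a ligand of the TAM receptors, by 2.30 (SE 0.32). Among the 12 with the largest rises were also the epoxide hydrolase Ephx1 (4.51), Ccdc3 (4.06), the granule linker Myrip (3.76), the clock factor Dbp (3.52), the copper oxidase Cp (3.51), the matrix gene Comp (3.50) and the capillary transcription factor Tcf15 (3.46). Gkn3 led the list by fold with 37 UMIs in 2 cells of KBN_N3AB and none in KBN_KO, KBN_WT or KBN_ISO, so it rests on 1 library.

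**Figure D4:**
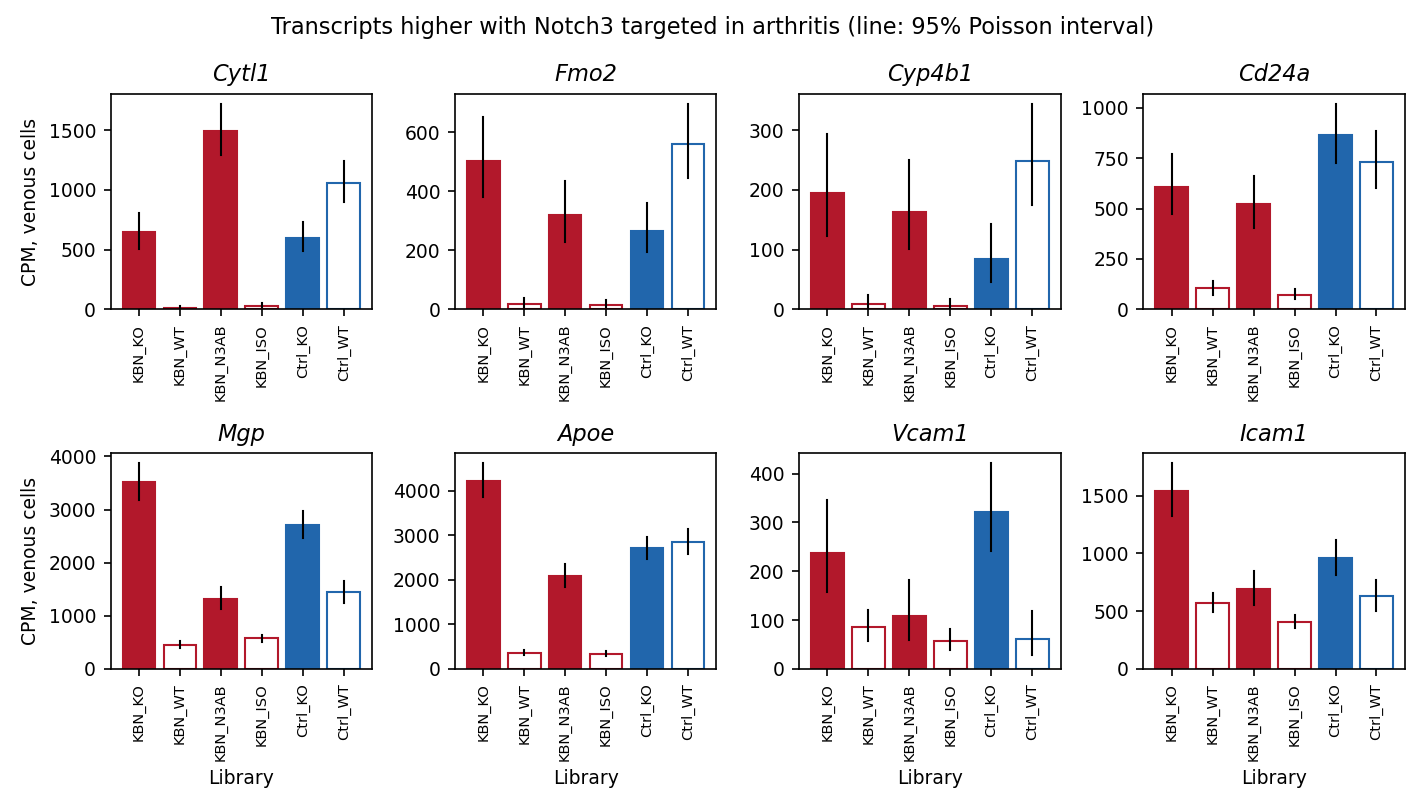
CPM in venous cells of 8 genes called higher with Notch3 targeted in the 2 arthritic pairs; bars are libraries, filled where Notch3 was targeted, red for arthritic and blue for healthy, and black lines are 95% Poisson intervals. Cytl1, Fmo2, Cyp4b1, Cd24a and Apoe are low in KBN_WT and KBN_ISO and high in the other 4 libraries, as with Cytl1 at 13.7 and 30.6 CPM against 601 to 1490 CPM.

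The vessel-bed lists are read against the 6.16% of all genes called higher and 3.61% called lower in the arthritic pairs. Of 12 tested capillary genes 5 rose (Cd36, Cd300lg, Fabp4, Meox2 and Tcf15) and 1 fell (Meox1), with a median log2 fold change of 0.78. The summed capillary list in venous cells was at 15030 CPM in KBN_KO and 5529 in KBN_WT, and 12110 in KBN_N3AB and 8444 in KBN_ISO. In other endothelial cells it was at 38970 CPM in KBN_KO and 7294 in KBN_WT, and 40810 in KBN_N3AB and 12280 in KBN_ISO. The part of stray capillary RNA in the venous rises was not tested. Of 8 tested arterial genes 4 rose (Fbln5, Vegfc, Mgp and Gkn3) and 0 fell, with a median of 1.07. Gkn3 rests on KBN_N3AB alone. Mgp held most UMIs of the arterial list in venous cells, whereas Gja4, Gja5, Sema3g and Hey1 had few. These rises are thus of some list members and do not show an arterial identity. The part played in them by which rule gene admitted the cells was not tested. Of 14 venous genes 4 rose (Ptgs1, Ehd4, Lbp and the water channel gene Aqp1) and 0 fell, while Lrg1 had a log2 fold change of -0.12 (SE 0.24, adjusted p = 0.847). Aqp1 was at 3080 CPM in KBN_KO and 1510 in KBN_WT, 4030 in KBN_N3AB and 1630 in KBN_ISO, and 3750 in Ctrl_KO and 3050 in Ctrl_WT. Fabp4 and Cd36, which bind and take up fatty acids, had fold changes of 1.31 (SE 0.23) and 1.88 (SE 0.29) on the log2 scale.

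Against 6.16% of all genes, 2 of 6 tested genes of the Notch list rose (median 0.35), the ligand Dll1 (1.72, SE 0.53, adjusted p = 0.0166) and the modifier Lfng (1.44, SE 0.50, adjusted p = 0.0442). Dll1 was at 79.4 CPM in KBN_KO and 8.22 in KBN_WT, 70.0 in KBN_N3AB and 38.7 in KBN_ISO, and 85.0 in Ctrl_KO and 159 in Ctrl_WT. The target gene Hes1 was not called in the arthritic pairs (0.19, SE 0.30, adjusted p = 0.780). In the healthy pair, which has no test, Hes1 was at least 2-fold apart. The summed Notch list was at 814 CPM in Ctrl_KO and 1472 in Ctrl_WT. In arthritis it was at 785 CPM in KBN_KO and 589 in KBN_WT, and 747 in KBN_N3AB and 730 in KBN_ISO. Among the flow-responsive transcription factors Klf2 rose by 0.73 (SE 0.24) and Klf4 by 1.31 (SE 0.25), and the ETS family member Ets1 fell by 1.44 (SE 0.36). Of the cytokines tested, Cxcl1 and Il6 rose and Csf3 fell. Il6 was at 327 CPM in KBN_KO and 82.2 in KBN_WT, 311 in KBN_N3AB and 243 in KBN_ISO, and 717 in Ctrl_KO and 69.1 in Ctrl_WT. In the cytokine response list Nfkbia, Nfkbiz, Irf1 and Junb rose, 4 of 13 (median 0.31), and in the interferon list Gbp2 and Iigp1, 2 of 14 (median -0.43), against 6.16% of all genes.

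Genes induced by tissue dissociation moved with targeting. Of 16 such genes, 11 rose in the arthritic pairs, among them Fos, Egr1 and Atf3, and 2 fell (Hspa1a and Hspa1b), against 6.16% of all genes higher and 3.61% lower. The summed list was at 36370 CPM in KBN_KO and 14550 in KBN_WT, 20440 in KBN_N3AB and 19030 in KBN_ISO, and 26740 in Ctrl_KO and 20660 in Ctrl_WT. The sum includes Hspa1a, a heat shock chaperone, at 1500 CPM in KBN_N3AB and 5740 in KBN_ISO, against 52.9 to 446 CPM in the other 4 libraries. The nearly level sum in the antibody pair therefore does not mean that the other members were level there. The part of dissociation in the rises of Icam1, Nfkbia, Klf4 and Cxcl1 was not tested.

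**Figure D5:**
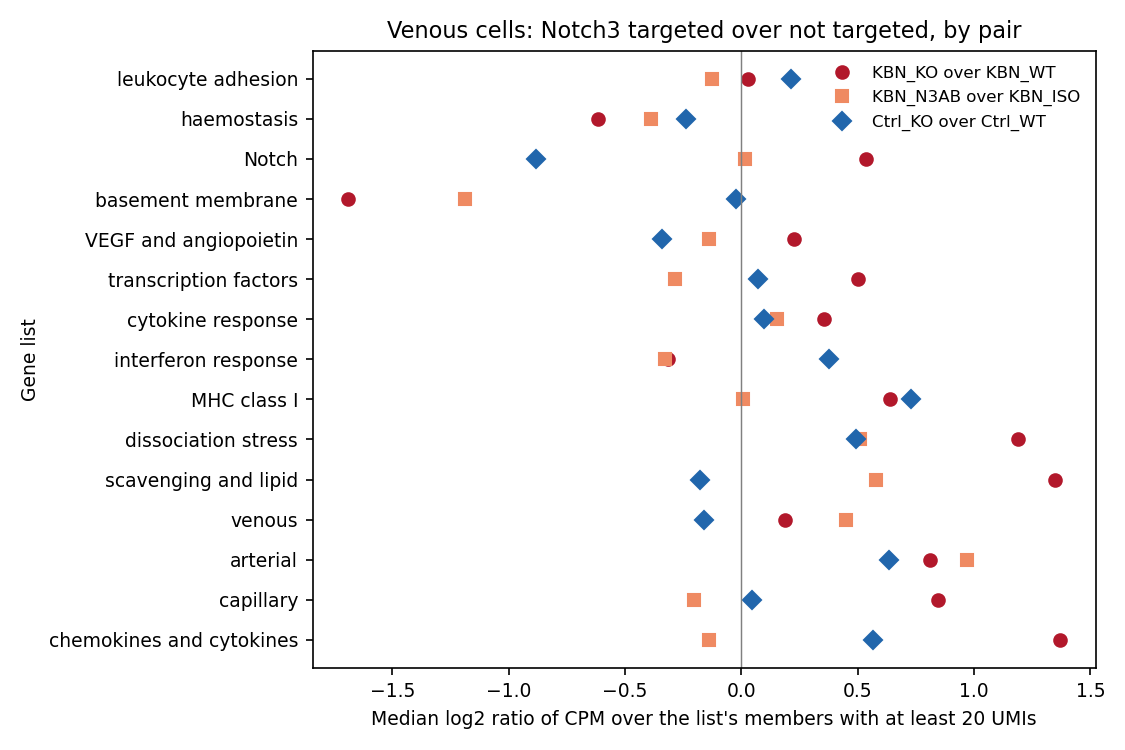
Median log2 ratio of CPM, Notch3 targeted over not targeted, over the members of 15 gene lists with at least 20 UMIs in the pair; each marker is 1 pair of libraries. The basement membrane list is at -1.69 for KBN_KO over KBN_WT and -1.19 for KBN_N3AB over KBN_ISO, and at -0.02 for Ctrl_KO over Ctrl_WT.

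The targeting effect was set against health. In the healthy pair, which has no test of its own, 145 of 2385 genes were at least 2-fold higher (6.08%) and 140 lower (5.87%) with Notch3 targeted. Wide differences were seen in MHC class II, the molecules that present antigen to helper T cells. Cd74 was at 1740 CPM in Ctrl_KO and 34.6 in Ctrl_WT, and H2-Aa was at 419 and H2-Ab1 at 431 CPM in Ctrl_KO, against 6.91 and 0 CPM in Ctrl_WT. Few cells held these transcripts: 14.9% of the 47 venous cells of Ctrl_KO, and none of Ctrl_WT, had 3 or more UMIs of the list. Other endothelial cells showed the same gap, with Cd74 at 2570 CPM in Ctrl_KO and 13.5 in Ctrl_WT. In arthritis H2-Aa, H2-Ab1 and Cd74 were called higher with targeting (3 of 5 tested, against 6.16% of all genes), with Cd74 at 194 CPM in KBN_KO and 21.9 in KBN_WT, and 0 in KBN_N3AB and 10.2 in KBN_ISO. Cd74 was thus higher with targeting in the genotype pair and not in the antibody pair. The summed macrophage list, whose cells also carry MHC class II, was at 261 CPM in Ctrl_KO and 82.9 in Ctrl_WT in venous cells. In other endothelial cells it was at 3978 CPM in Ctrl_KO and 320.6 in Ctrl_WT. The part of macrophage RNA in the gap of either cell set was not tested.

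The difference of the targeting effect between the arthritic pairs and the healthy pair was called for 135 of 3573 genes (3.78%), 88 higher (2.46%) and 47 lower (1.32%), and DESeq2 called 8, all among them. It rests on the lone healthy pair, which is assumed to vary like the arthritic pairs. In the basement membrane list 5 of 14 differed, all lower in arthritis: Col4a1 (-3.28, SE 0.73, adjusted p = 0.000736), Col4a2, Col15a1, Sparc and Fn1. Cytl1 had a difference of 6.48 (SE 0.55, adjusted p = 3.07e-28), Cyp4b1 of 6.20 and Fmo2 of 5.63, all 3 also called by DESeq2. Without cells holding 3 or more mural UMIs the difference was called for 48 of 2502 genes tested. That filter took out 15 of 26 venous cells in Ctrl_WT and 13 of 47 in Ctrl_KO. In arthritis it took out 8 of 35 in KBN_KO, 3 of 55 in KBN_WT, 7 of 33 in KBN_N3AB and 8 of 86 in KBN_ISO. The part of the lost cells in the lower count was not tested. The summed mural list was at 601 CPM in Ctrl_KO and 1078 in Ctrl_WT, and at 82.2 to 451 CPM in the arthritic libraries.

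Arthritis itself was tested over all 6 libraries with targeting as a term. The model gave targeting the same effect in health and arthritis, so any difference between these effects entered its spread. The test called 0 of 2887 genes (0%), with 240 at an unadjusted p under 0.05, and DESeq2 called 2. Without Ctrl_KO 118 genes were called, without Ctrl_WT 3 and without KBN_ISO 1. The smallest p-values, all with an adjusted p of 0.266, belonged to Cxcl10, Sox4, Igfbp5, Fgl2, Fscn1 and Serpinh1. Cxcl10, an interferon-induced chemokine for T cells, was at 185 CPM in KBN_KO, 271 in KBN_WT, 70.0 in KBN_N3AB and 106 in KBN_ISO, against 0 in Ctrl_KO and 6.91 in Ctrl_WT. All 4 arthritic libraries were above both healthy ones. Serpinh1, the collagen chaperone, was at 256 CPM in KBN_KO, 972 in KBN_WT, 482 in KBN_N3AB and 1570 in KBN_ISO, against 152 in each healthy library.

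Single pairs of libraries show where arthritis and targeting meet, though they share libraries with the fits above and have no test. Between KBN_WT and Ctrl_WT, 452 of 3716 genes were at least 2-fold higher in arthritis (12.2%) and 340 lower (9.15%). There, 7 of 13 measured basement membrane genes were higher and 1 lower, 8 of 13 interferon genes were higher and 1 lower, and 6 of 10 capillary genes were lower and 2 higher. Between KBN_KO and Ctrl_KO, 74 of 2078 genes were higher (3.56%) and 130 lower (6.26%), and in the basement membrane list 0 of 8 were higher and 1 lower. Between KBN_ISO and Ctrl_WT, where 14.0% of 4501 genes were higher and 8.04% lower, 10 of 15 basement membrane genes were higher and 1 lower.

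In the other endothelial cells of the same libraries, the arthritic pairs gave 969 called genes of 6552 (14.8%), 550 higher (8.39%) and 419 lower (6.39%), and Col4a1 (-2.19, SE 0.23), Cytl1 (2.90, SE 0.29) and Apoe (3.24, SE 0.22) were called there in the same direction. A test of venous minus other endothelial cells, with library as a term, called 10 of 6217 genes (0.161%) for targeting over the 3 pairs, 5 higher (0.0804%) and 5 lower (0.0804%), and 2 (0.0322%) for arthritis. The 10 include Acta2, Myl9 and Rgs5, which mark mural cells, and Lyve1, which marks lymphatic endothelium and was at 0 to 23.3 CPM in venous cells and 0 to 310 in the others. The make-up of the other endothelial cells also differed between libraries, and its part in these differences was not tested.

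Lrg1 was among the 10. In venous cells it was at 1990 CPM in KBN_KO and 2230 in KBN_WT, 1350 in KBN_N3AB and 1690 in KBN_ISO, and 1440 in Ctrl_KO and 1100 in Ctrl_WT. In the other endothelial cells it was at 122 CPM in KBN_KO and 924 in KBN_WT, 128 in KBN_N3AB and 568 in KBN_ISO, and 143 in Ctrl_KO and 116 in Ctrl_WT. The venous level ranged over about 2-fold, while the level outside the venous cells was high in the 2 arthritic libraries without targeting. The targeting effect over the 3 pairs was 0.05 (SE 0.23, adjusted p = 0.969) in venous cells. The venous minus other difference was 1.64 (SE 0.37, adjusted p = 0.0350) on the log2 scale, with other endothelial cells lower under targeting in both arthritic pairs. For arthritis, Cxcl10 had a venous minus other difference of 5.69 (SE 0.99, adjusted p = 0.00549), with 9.14 to 31.2 CPM in other endothelial cells of the arthritic libraries and 34.4 in Ctrl_KO and 13.5 in Ctrl_WT.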

How the data were processed

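Droplet-based single-cell RNA sequencing (a 3' kit of 10x Genomics) measured live-sorted cells of mouse knee synovium, with 7000 cells loaded per library, per the labels. The deposited matrices hold UMI counts per gene and barcode; Cell Ranger 3.0.2 and the mm10 build are named in the submitters' processing notes, and the sources used here do not state the cell filter before deposit. Genes were placed with GENCODE M21 (471 of 471 shown symbols matched), and start regions came from RefSeq tables of GRCm38.p6.

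The venous rule was applied to raw counts, and counts were summed over venous and over other endothelial cells of each library. CPM has exact Poisson intervals and shares have exact Clopper-Pearson intervals, both at 95%; they cover counting error only. A fold against a library at 0 UMIs was taken against a floor of 3 UMIs in that library. Scrublet (scanpy 1.11.5, expected rate 0.03) marked 0 venous cells as doublets; it marked under 0.5% of cells in 3 libraries, so it may have missed some.

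Tests used the quasi-likelihood F test of edgeR 4.0.16 after filterByExpr and TMM normalisation, with Benjamini-Hochberg adjustment over all genes tested and a threshold of 0.05. The SE beside a log2 fold change is the size of that change divided by the square root of its F statistic. It was derived from the test and not estimated apart. Models were fitted with terms for pair and targeting (2 residual degrees of freedom), with separate targeting effects in healthy and arthritic pairs (1), and with terms for targeting and arthritis (3). The pairs come from matched labels, and knockout and antibody are treated as repeats of 1 effect. Tests of venous minus other endothelial cells, with library as a term, were added after seeing the data. DESeq2 1.42.0, other filters, scalings and left-out libraries were the alternatives. Code was tested on simulated data with known changes. Pair ratios used 0.5 UMIs as pseudocount and genes with at least 20 UMIs; a 2-fold difference counted as called.

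Genes were named by a rule: the rule genes and Notch3; the 25 highest and 10 lowest venous against other genes; up to 12 genes per direction and test by fold change, or the 6 smallest p-values; up to 6 per direction and pair; and members of gene lists past a threshold or with most UMIs. Genes of the rule stayed in the fits and in the counts of calls over all genes, were left out of the list counts, and are described by their values only. The result of 1 gene that the naming rule picks is not reported here. The members, gene lists and tests were chosen with earlier results of these data known.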

Additional observations from a re-analysis of the deposited data

Results flagged for a closer look

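The values below are log2 differences from edgeR's quasi-likelihood test that passed an adjusted p of 0.05, which means that an effect differed between 2 settings. The targeting effect was higher in the arthritic pairs than in the healthy pair for Cytl1 (6.48), Cyp4b1 (6.20), Dbp (5.87), Cp (5.82), Fmo2 (5.63), Gadd45b (4.39), Fmo1 (4.22), Net1 (4.22), Gucy1a1 (4.11), Slco2b1 (3.95), Comp (3.77) and Ccdc3 (3.69). It was lower for Vwa1 (-5.92), Cmah (-5.79), Col3a1 (-5.48), Fn1 (-4.86), Atp8b1 (-4.79), Serpinb1a (-4.73) and Nupr1 (-4.47). Lower values for S100a4 (-9.77), F2r (-8.55), Il2rg (-7.72) and H2-Ab1 (-7.39) each involve a Ctrl_WT library at 0 UMIs, so their fitted sizes depend on the prior count and are no bounds. All of these rest on the lone healthy pair.

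The arthritis effect was higher in venous than in other endothelial cells for Cxcl10 (5.69) and Lyve1 (11.4). For Lyve1 the venous cells held 9 UMIs in all, and 4 of the 6 other endothelial libraries were at 181 to 310 CPM. Other endothelial cells with at least 3 UMIs of the lymphatic list numbered 0 of 159 in KBN_KO and 10 of 69 in KBN_WT. They numbered 0 of 80 in KBN_N3AB and 17 of 126 in KBN_ISO, and 17 of 163 in Ctrl_KO and 4 of 122 in Ctrl_WT. The targeting effect was higher in venous than in other endothelial cells for Ccl4 (12.4), Lyve1 (8.18), Cxcl2 (4.04), Fxyd6 (2.94) and Lrg1 (1.64), and lower for Rgs5 (-4.63), Myl9 (-4.57), Acta2 (-3.66), Isg15 (-1.98) and Iigp1 (-1.52). Ccl4 had 7 UMIs in KBN_KO, 3 in Ctrl_KO and 0 in the other venous libraries.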

How the results depend on the processing

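The count for the arthritic pairs was 349 and became 58 with DESeq2; with other scaling, no low-count filter, a stricter venous rule, equal depth, or without mural-UMI cells or the healthy pair it lay between 253 and 348. For the 3 pairs, 0 became 19 with DESeq2, 120 with no filter, 2 with at least 3 rule UMIs and 47 without cells with mural UMIs. Leaving out a pair gave 0 to 346, the 346 without the healthy pair, and no replicate block (no pair term) gave 0, with 322 at an unadjusted p under 0.05. For the difference, 135 became 8 with DESeq2 and 48 without mural-UMI cells. For arthritis, 0 became 2 with DESeq2 and 69 with no filter, and leaving out a library gave 0 to 118. Thinning moved the venous share to 9.56% in Ctrl_WT, 13.4% in Ctrl_KO, 25.8% in KBN_WT and 23.1% in KBN_ISO. The causes were not tested, beyond the smaller number of samples, cells or genes where some were left out. With 26 to 86 venous cells per library, genes near 20 UMIs are imprecise, and 1 pool of mice per group leaves genotype, pool and library together.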

Other observations

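Cell cycle genes were scarce in venous cells. The summed proliferation list was at 150 CPM in KBN_KO, 137 in KBN_WT, 140 in KBN_N3AB, 173 in KBN_ISO, 140 in Ctrl_KO and 145 in Ctrl_WT, with no order by arthritis or targeting. The summed MHC class I list was at 7113 CPM in KBN_KO and 5034 in KBN_WT, 5640 in KBN_N3AB and 5934 in KBN_ISO, and 6536 in Ctrl_KO and 4222 in Ctrl_WT. In the arthritic pairs, the adjusted p-values of its 8 tested genes lay between 0.0946 (H2-T23) and 0.948 (Tapbp) with edgeR and were 1.0 with DESeq2.

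Cxcl10 was held by few cells. Its 182 UMIs lay in 27 of the 282 venous cells (9.57%), 4 of them in KBN_KO, 9 in KBN_WT, 4 in KBN_N3AB, 9 in KBN_ISO, 0 in Ctrl_KO and 1 in Ctrl_WT. Sele, in contrast, was seen in 111 cells (39.4%), and Lrg1 in 251 (89.0%).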
